A study of Mus musculus with 67 samples.

Results

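Imprinted growth genes are genes that a cell reads mainly from the copy inherited from 1 parent, and that set how much embryonic tissues grow. The 10 examined here were chosen by gene symbol: *Igf2*, *H19*, *Dlk1*, *Meg3*, *Cdkn1c*, *Peg3*, *Grb10*, *Igf2r*, *Mest* and *Plagl1*. Each symbol matched 1 row, so that 10 of the 46983 gene IDs listed were followed, and all 10 passed the filter on low values in each of the 5 comparisons. Their RNA was measured in 14 mouse forelimb bud libraries of 4 groups. The E9.25 libraries (21 to 23 somites) came from whole forelimb buds, with 3 WT and 4 Gli3-/- replicates. The E10.5 libraries (32 to 35 somites) came from the anterior part of the buds, with 4 WT and 3 Gli3-/- replicates. WT embryos were Swiss Webster, and Gli3-/- embryos carried the Xt-J allele of *Gli3*, kept on that background and present in every cell of the embryo. Each library was a pool, made by the sample records from about 4 pairs of buds at the younger stage and 2 at the older one, so that single embryos were not resolved. Buds of several litters went into the pools, and the sources used here do not say whether pools of a group shared litters. The p-values measure the spread between these pools. The study asked whether loss of *Gli3*, which encodes a transcription factor that represses Hedgehog target genes, changes gene expression before and after Hedgehog signaling begins.

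In most imprinted loci a methylation mark laid down in the egg or the sperm decides which parental copy is read. Paternally read genes, among them *Igf2*, *Dlk1*, *Peg3*, *Mest* and *Plagl1*, often favor growth or progenitor states, and maternally read genes, among them *H19*, *Cdkn1c*, *Igf2r*, *Grb10* and *Meg3*, often hold growth back. IGF2 is the main fetal growth factor of the mouse, and it signals through the IGF1 and insulin receptors, whereas IGF2R takes it into lysosomes and GRB10 dampens signaling inside the cell. The libraries do not tell the parental copies apart, so that the values give total RNA and not imprinting itself.

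Some members of the group carry a microRNA in their transcript, and these are shown because the host RNA and the small RNA are read from the same stretch. The sequences are those of RefSeq on GRCm38.p6, 5′ to 3′, with the seed (bases 2 to 8) in capitals. The *H19* transcript holds Mir675 (chr7:142577064-142577147, minus strand), *Igf2* holds Mir483 (chr7:142654924-142654996, minus strand) and *Mest* holds Mir335 (chr6:30741299-30741396, plus strand).
mmu-miR-675-5p: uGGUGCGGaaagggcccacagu
mmu-miR-675-3p: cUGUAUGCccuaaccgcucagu
mmu-miR-483-5p: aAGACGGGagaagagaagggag
mmu-miR-483-3p: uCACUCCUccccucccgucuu
mmu-miR-335-5p: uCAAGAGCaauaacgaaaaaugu
mmu-miR-335-3p: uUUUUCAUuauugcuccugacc
The 6 seeds differ from each other, and each is found in only 1 of the 1738 mature mouse sequences of the table. The hairpins are 84, 73 and 98 bases long, shorter than a read of 100 bases, so that the libraries measure the hosts and not the mature microRNAs.

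The genotype labels were checked on *Gli3*. At E9.25 it was at 44.2, 15.8 and 44.6 TPM (a level per transcript length that sums to an equal total for every library) in the 3 WT libraries and at 14.3, 20.6, 20.8 and 19.1 in Gli3-/-, so that the library labelled WT replicate 2 lay within the mutant range. The log2 fold change was −0.74 (SE 0.32, limma adjusted p = 0.223), and −1.22 (adjusted p = 0.0415) without that library. At E10.5 the groups did not overlap, with 73.4 to 89.7 TPM in WT and 38.7 to 40.9 in Gli3-/- (log2 fold change −1.01, adjusted p = 0.000335). Estimated depth was 38.1 to 56.8 M reads per library, lowest in E9.25 WT replicate 2. That library also read long genes low. Against the mean of the other E9.25 WT libraries, tested genes spanning 100 kb or more were lower by a median of −0.55 on the log2 scale and those spanning under 10 kb by −0.01. Among the imprinted growth genes the difference was −2.29 for *Igf2r*, −2.03 for *Meg3*, −1.89 for *Peg3*, −0.90 for *Plagl1* and −0.82 for *Grb10*, while *Dlk1* (0.35) and *Mest* (0.22) were higher there. These differences did not follow span alone: *Grb10* spans 108 kb, and *Meg3*, *Peg3* and *Mest* span 30.7, 26.5 and 24.9 kb. Genotype tests of the imprinted growth genes at E9.25 are given with and without this library.

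Markers of limb mesenchyme such as *Prrx1* were present in all groups, with a summed level over 8 genes of 725 to 1177 TPM, and 3 hindlimb markers together stayed at 1.82 to 9.40 TPM. At E9.25 the hindlimb sums did not overlap between genotypes, at 1.82 to 4.22 TPM in WT and 4.86 to 8.65 in Gli3-/- libraries. Neither did the sums of 8 neural markers, at 6.05 to 12.6 and 3.39 to 5.10, which were mostly *Tubb3* (means of 8.95 and 3.37). Only 2 hindlimb markers and 1 neural marker, *Tubb3*, were above the filter there, and 0 passed. Below it, 1 marker of each list went against its sum. *Tbx4* was at 0.229 to 0.274 TPM in WT and 0 to 0.0315 in Gli3-/-, and *Sox10* at 0.168 to 0.202 and 0.442 to 0.994. The 10 markers of flank and lateral plate mesoderm, the tissue next to the bud, differed between the E9.25 groups. Their summed level was 79.8, 36.3 and 34.9 TPM in the WT libraries and 162, 239, 248 and 101 in the Gli3-/- libraries, and it lay between 34.9 and 63.9 in all E10.5 libraries. Most of the E10.5 sum was *Tbx18*, at means of 38.9 TPM in WT and 29.7 in Gli3-/-, which was higher than at E9.25. Between stages 5 of 8 tested markers were lower and 2 higher in WT, and 7 of 9 lower and 1 higher in Gli3-/- buds. The genotype effect was lower at E10.5 than at E9.25 for 5 of 9 and higher for 0, beside 1.65% of all tested genes lower. Of the 9 tested at E9.25, *Foxf1*, *Gata4* and *Osr1* were higher in Gli3-/- buds by limma and none was lower. *Foxf2* was at 0 in the 3 WT libraries, and no marker of the list was at 0 in the Gli3-/- ones. The 8 endothelial markers summed to 69.1 to 116 TPM in E9.25 WT and 134 to 197 in E9.25 Gli3-/-, and none of them passed. The E9.25 sums for surface ectoderm and apical ridge overlapped, at 182 to 278 TPM in WT and 238 to 375 in Gli3-/-. Of that list, *Krt8* and *Krt18* had means of 35.3 and 35.2 TPM in WT and 96.7 and 104 in Gli3-/-. *Fgf8* went the other way (56.4 and 22.7). *Lbx1*, a muscle progenitor marker, had means of 2.18 and 0.382 TPM, while the sums of its list overlapped. Of these 2 lists, 0 of 8 and 0 of 5 tested markers passed. These values stand beside the E9.25 results below, and their part in them was not tested. In bulk RNA, a change in the number of cells of a type and a change of RNA per cell cannot be told apart.

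*H19*, *Mest* and *Igf2* were among the most abundant RNAs of the bud, and the other 7 genes ranged down to place 7508 of a library, for *Plagl1*. Together the 10 made up 0.685% ± 0.045 (SD, n = 3) of all TPM in E9.25 WT, 0.847% ± 0.117 (SD, n = 4) in E9.25 Gli3-/-, 0.948% ± 0.075 (SD, n = 4) in E10.5 WT and 1.06% ± 0.08 (SD, n = 3) in E10.5 Gli3-/- libraries. *H19* ranked between place 7 and place 36 of all genes in a library, *Mest* between 31 and 112 and *Igf2* between 54 and 245, and these 3 carried most of the sum. In each of the 4 groups the order was *H19*, *Mest*, *Igf2*, then *Grb10*, and the libraries of *H19*, *Mest* and *Igf2* did not overlap with those of the next gene. *Grb10* overlapped with its next gene at E9.25 (*Peg3* in WT, *Dlk1* in Gli3-/-) and not at E10.5. *Plagl1* had the lowest mean in every group, but its libraries overlapped with those of the gene next above it in all groups but E10.5 WT. *Dlk1* and *Cdkn1c* changed place most, each by 4 places: *Dlk1* was in place 5 in E9.25 Gli3-/- and in place 9 in E10.5 WT buds, and *Cdkn1c* was in place 9 in E9.25 Gli3-/- and in place 5 in E10.5 Gli3-/- buds.

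**Figure D1:**
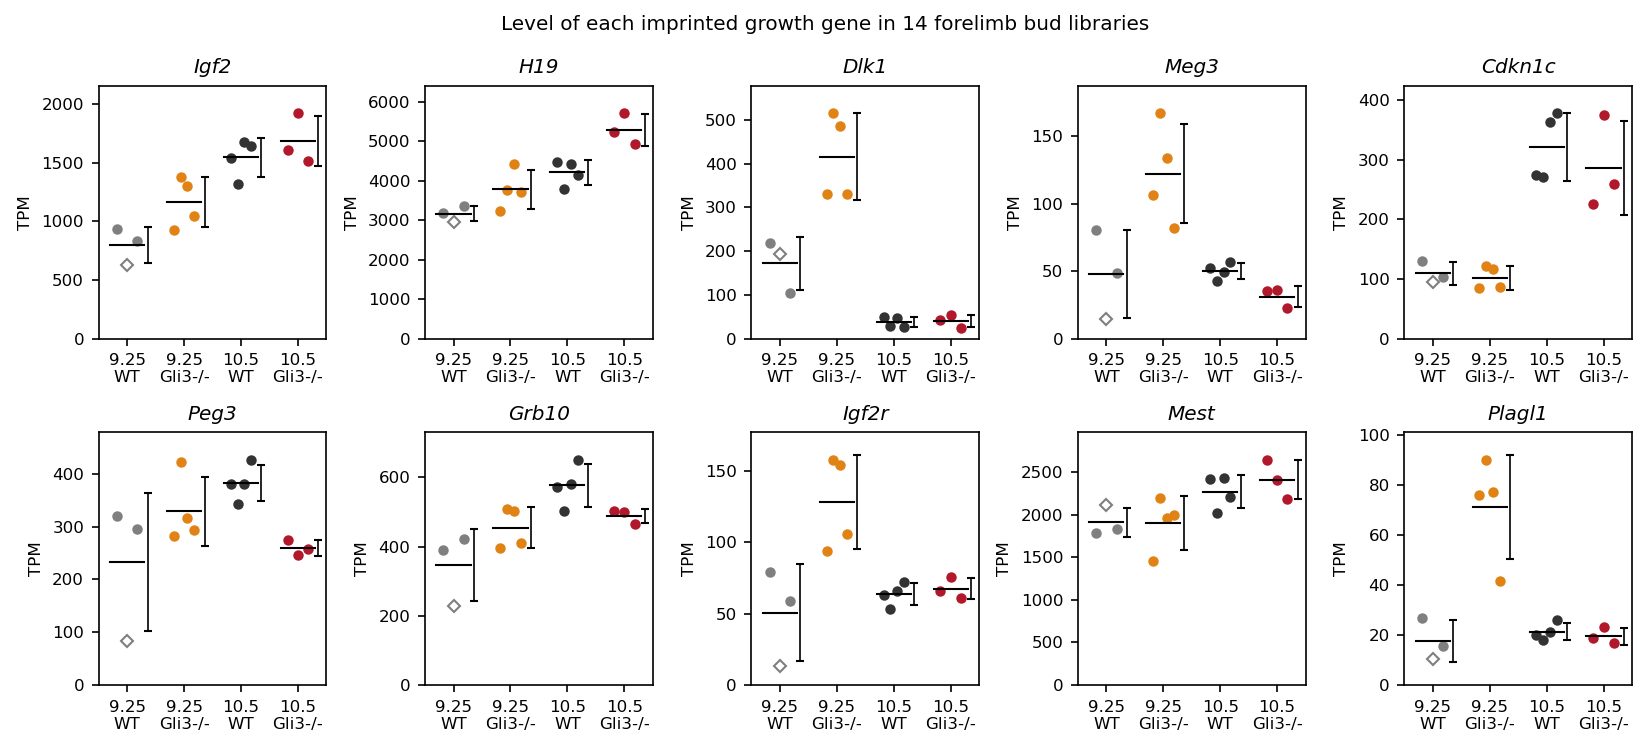
Level of each gene in TPM (vertical axis, from 0) in the 14 libraries, by stage and genotype. Points are libraries, the open diamond is E9.25 WT replicate 2, horizontal lines are group means and bars are SDs (n = 3, 4, 4 and 3). *Dlk1*, *Meg3*, *Igf2r* and *Plagl1* stand higher in all 4 E9.25 Gli3-/- libraries than in any E9.25 WT library, and *Cdkn1c* stands higher in all E10.5 than in all E9.25 libraries.

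Loss of *Gli3* at E9.25 gave no imprinted growth gene that passed the test, and the largest differences were increases. By limma on log2(TPM + 1), 0 of 10 had an adjusted p under 0.05, beside 0.136% of the 14760 genes tested (20 genes, 0.108% higher and 0.0271% lower), and 5 of 10 had an unadjusted p under 0.05, beside 3247 of all genes. Without WT replicate 2 the count was again 0 of 10, with 14 genes higher and 4 lower over all genes. The Gli3-/- libraries all lay above the WT libraries for 4 of 10 (*Dlk1*, *Meg3*, *Igf2r* and *Plagl1*) and below them for none, beside 9.97% of tested genes higher and 3.36% lower. The median log2 fold change was 0.63 over the 10 and 0.23 over all tested genes. Both medians include WT replicate 2 and were not computed without it. Of the 10, the differences of *Igf2r*, *Meg3* and *Peg3* shrank most without that library, to 0.86, 0.91 and 0.08.

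At E10.5, loss of *Gli3* went with less RNA of *Peg3* and *Meg3*. By limma 2 of 10 passed, both lower, beside 4.77% of the 15654 genes tested, 2.93% lower and 1.84% higher. The groups did not overlap for 4 of 10, beside 19.3% of genes (7.87% higher and 11.5% lower): *H19* was higher and *Meg3*, *Peg3* and *Grb10* were lower in every Gli3-/- library. The median was −0.03 over the 10 and −0.02 over all genes. Markers differed here too: the 8 limb mesenchyme markers summed to 974 to 1177 TPM in E10.5 WT and 725 to 798 in E10.5 Gli3-/- libraries (5 of 8 lower and 1 higher by limma), and the 8 markers of surface ectoderm and apical ridge to 214 to 271 and 298 to 337. The latter sum was higher through *Fgf8*, the ridge growth factor, at a mean of 59.1 TPM in WT and 153 in Gli3-/-, the 1 marker of that list that passed, and 6 of the other 7 had lower means in Gli3-/-. The blood markers, of which 0 of 8 passed by limma, summed to 38251 TPM in Gli3-/- replicate 3, and the other two Gli3-/- libraries lay within the WT range. Their part in these results was not tested.

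Between stages more of the genes differed, as did more of all genes. In WT buds 5 of 10 passed, beside 48.7% of the 15444 genes tested: *Cdkn1c*, *Igf2*, *Grb10* and *H19* were higher at E10.5 (38.1% of genes were) and *Dlk1* was lower (10.6% of genes were). In Gli3-/- buds 7 of 10 passed, beside 25% of the 15434 genes tested: *Cdkn1c*, *Igf2* and *H19* were higher (15.8% of genes) and *Dlk1*, *Meg3*, *Plagl1* and *Igf2r* were lower (9.17% of genes). The groups did not overlap for 6 of 10 in WT and 8 of 10 in Gli3-/- buds, beside 53.5% of genes (41.5% higher, 12% lower) and 35.7% (22.3% higher, 13.4% lower). The stages compare whole with anterior buds, so that age and part of the bud cannot be told apart. The median gene was itself 0.34 higher at E10.5 in WT and 0.06 higher in Gli3-/- buds. The difference between the genotype effects at the 2 stages, tested in a model of all 14 libraries, passed for 1 of 10 (*Plagl1*), beside 2.13% of the 16368 genes tested (0.477% higher and 1.65% lower), with a median of −0.24 over all genes. The stage and genotype comparisons share libraries and are not independent of each other.

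**Figure D2:**
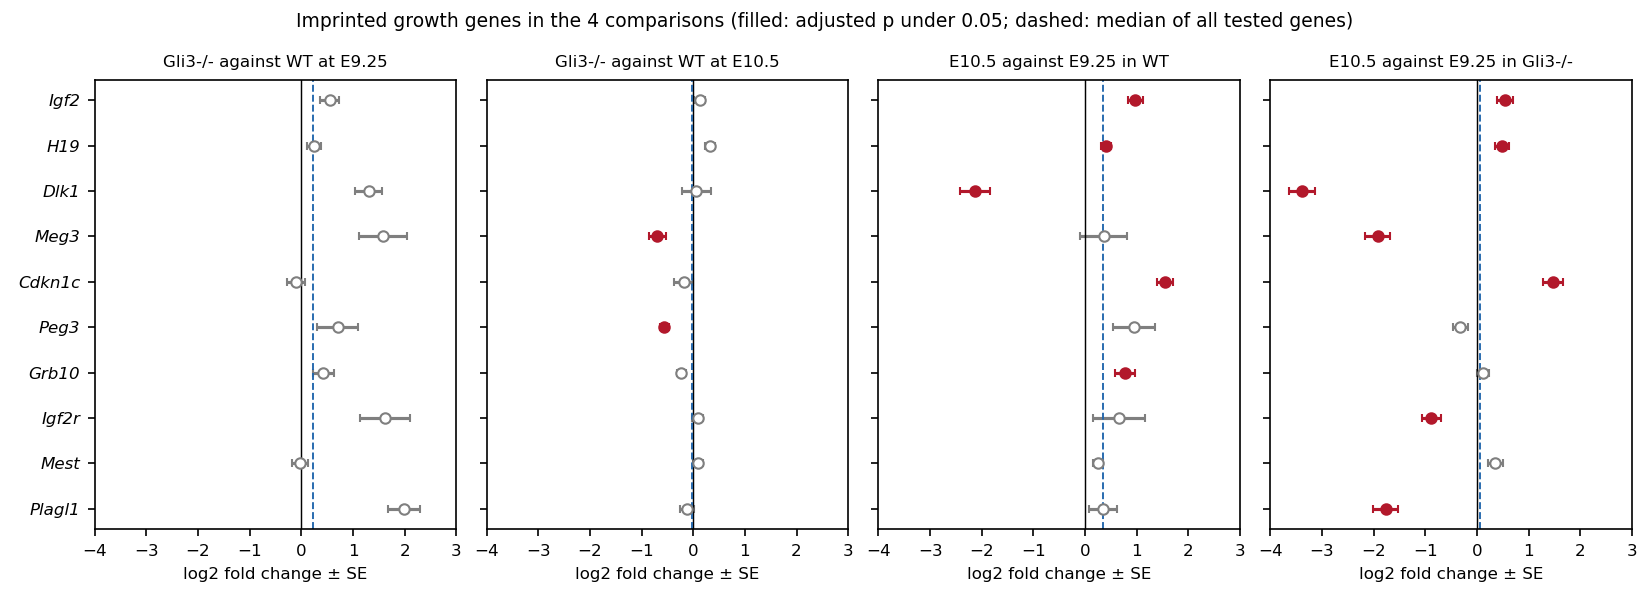
Log2 fold change with SE (horizontal axis) of the 10 genes in the 4 comparisons, from limma on log2(TPM + 1). Filled red points have an adjusted p under 0.05, and the dashed line is the median of all tested genes. No gene is filled at E9.25, *Meg3* and *Peg3* are filled at E10.5, 5 genes between stages in WT and 7 in Gli3-/- buds.

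*Igf2* (ENSMUSG00000048583.16, chromosome 7, 142650766 to 142666816, minus strand), the fetal growth factor, was higher at E10.5 in both genotypes. It was at 932, 629 and 829 TPM in E9.25 WT, at 924, 1378, 1303 and 1048 in E9.25 Gli3-/-, at 1544, 1317, 1679 and 1642 in E10.5 WT and at 1609, 1924 and 1518 in E10.5 Gli3-/- libraries. In both genotypes all E10.5 libraries lay above all E9.25 libraries. The log2 fold change between stages was 0.97 (SE 0.14, limma adjusted p = 0.00135) in WT, or 0.63 above the median gene, and 0.54 (SE 0.16, adjusted p = 0.029) in Gli3-/- buds. The latter missed the threshold when E9.25 Gli3-/- replicate 4 (adjusted p = 0.0804), E10.5 Gli3-/- replicate 1 (0.0684) or E10.5 Gli3-/- replicate 2 (0.135) was left out. This stage difference in Gli3-/- buds passed under 8 of 9 other settings, with a highest adjusted p of 0.089. Genotypes overlapped at both stages, with log2 fold changes of 0.55 (SE 0.18, adjusted p = 0.217) at E9.25, or 0.39 (adjusted p = 0.433) without WT replicate 2, and 0.12 (SE 0.11, adjusted p = 0.609) at E10.5.

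*H19* (ENSMUSG00000000031.15, chromosome 7, 142575529 to 142578143, minus strand), the long noncoding RNA that lies 72.6 kb from *Igf2* and shares enhancers with it, was the most abundant of the 10. It was at 3195, 2969 and 3351 TPM in E9.25 WT, at 3234, 3772, 4423 and 3717 in E9.25 Gli3-/-, at 4474, 3797, 4436 and 4146 in E10.5 WT and at 5244, 5721 and 4925 in E10.5 Gli3-/- libraries. The stage groups did not overlap in either genotype. The log2 fold change between stages was 0.41 (SE 0.09, limma adjusted p = 0.00883) in WT, which is 0.07 above the median gene and fell to 0.04 (adjusted p = 0.856) with median-of-ratios size factors, and 0.49 (SE 0.13, adjusted p = 0.0231) in Gli3-/- buds. The latter missed the threshold when E9.25 Gli3-/- replicate 4 (adjusted p = 0.0638), E10.5 Gli3-/- replicate 1 (0.0693) or replicate 2 (0.111) was left out, and under 4 of 9 other settings: quantile normalization (0.11, adjusted p = 0.728), no filter (adjusted p = 0.106), size factors (0.0842) and the replicate block (0.0584). The 3 Gli3-/- libraries at E10.5 were the highest of all 14, but the genotype difference at that stage, 0.33 (SE 0.10, adjusted p = 0.0961), did not pass. At E9.25 it was 0.25 (SE 0.14, adjusted p = 0.276), and 0.20 (adjusted p = 0.545) without WT replicate 2.

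*Igf2r* (ENSMUSG00000023830.13, chromosome 17, 12682406 to 12769664, minus strand), the receptor that clears IGF2, stood out at E9.25 in Gli3-/- buds. It was at 79.4, 13.2 and 59.0 TPM in E9.25 WT, at 93.8, 158, 154 and 106 in E9.25 Gli3-/-, at 62.8, 53.4, 65.8 and 72.5 in E10.5 WT and at 66.0, 75.4 and 61.1 in E10.5 Gli3-/- libraries. The 4 E9.25 Gli3-/- libraries were above all 10 others. The E9.25 genotype difference was 1.62 (SE 0.49, limma adjusted p = 0.217), and 0.86 (SE 0.23, adjusted p = 0.291) without WT replicate 2, whose value of 13.2 was the lowest. Between stages *Igf2r* fell by 0.88 in Gli3-/- buds (SE 0.19, adjusted p = 0.00657), a call lost when all 14 libraries shared 1 spread (adjusted p = 0.137). In WT buds the stage difference was 0.65 (adjusted p = 0.295) with WT replicate 2 and −0.11 (adjusted p = 0.556) without it.

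*Grb10* (ENSMUSG00000020176.17, chromosome 11, 11930508 to 12038683, minus strand), the adaptor that dampens insulin and IGF receptors, rose between stages in WT buds. It was at 390.5, 229 and 421 TPM in E9.25 WT, at 396, 509.6, 503 and 411 in E9.25 Gli3-/-, at 573, 503, 579.7 and 651 in E10.5 WT and at 503, 499 and 466 in E10.5 Gli3-/- libraries. Every E10.5 WT library was above every E9.25 WT library, and in Gli3-/- buds the stages overlapped. The WT stage difference was 0.77 (SE 0.20, limma adjusted p = 0.0133), 0.50 (adjusted p = 0.00797) without E9.25 WT replicate 2 and 0.41 (adjusted p = 0.0652) with median-of-ratios size factors. In Gli3-/- buds it was 0.11 (SE 0.12, adjusted p = 0.528), and the test of the difference between these stage effects gave −0.66 (SE 0.24, adjusted p = 0.166). The genotypes overlapped at E9.25, with 0.43 (SE 0.21, adjusted p = 0.238) and 0.16 (adjusted p = 0.602) without WT replicate 2. At E10.5 the Gli3-/- libraries were all below the WT libraries, at the nearest by 502.5 against 502.6 TPM, with a log2 fold change of −0.23 (SE 0.09, adjusted p = 0.191).

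Ratios within a library set the ligand beside its partners, as a description with no test. *Igf2* RNA was 11.7, 47.6 and 14.0 times that of *Igf2r* in the E9.25 WT libraries, the 47.6 being replicate 2, 8.44 to 9.92 times in E9.25 Gli3-/-, 22.7 to 25.5 times in E10.5 WT and 24.4 to 25.5 times in E10.5 Gli3-/- libraries. The E9.25 Gli3-/- libraries held the lowest ratios of the 14. The ratio of *Igf2* to *H19* ranged more narrowly, from 0.212 to 0.292 in E9.25 WT, 0.282 to 0.365 in E9.25 Gli3-/-, 0.345 to 0.396 in E10.5 WT and 0.307 to 0.336 in E10.5 Gli3-/- libraries. At E10.5 the genotypes did not overlap in it, with every Gli3-/- library below every WT library.

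**Figure D3:**
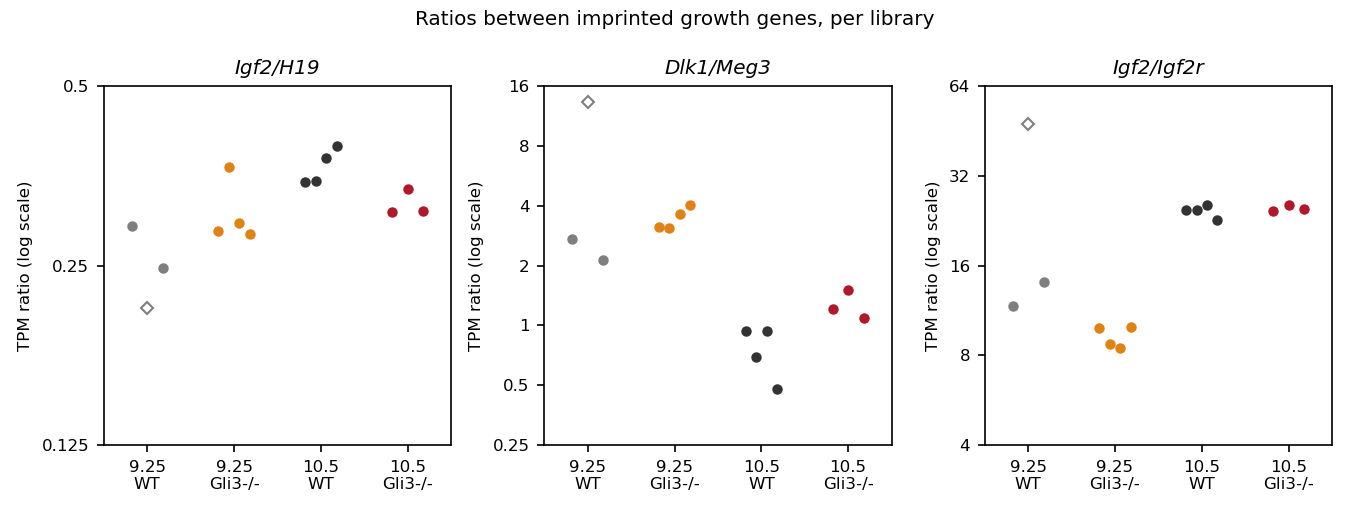
Ratio of TPM within each library (vertical axis, log scale) for *Igf2* to *H19*, *Dlk1* to *Meg3* and *Igf2* to *Igf2r*, by stage and genotype. Points are libraries and the open diamond is E9.25 WT replicate 2. *Dlk1* exceeds *Meg3* in all 7 E9.25 libraries and is below it in the 4 E10.5 WT libraries, and *Igf2* to *Igf2r* is lowest in the 4 E9.25 Gli3-/- libraries.

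*Dlk1* and *Meg3* lie 77.7 kb apart in 1 imprinted domain of chromosome 12, read from opposite parental copies. *Dlk1* (ENSMUSG00000040856.17, 109452823 to 109463336, plus strand) encodes a membrane protein related to the Notch ligands that holds progenitors back from differentiation, and *Meg3* (ENSMUSG00000021268.17, 109541001 to 109571726, plus strand) is a long noncoding RNA. The 250 bases before the RefSeq start of each are shown because both genes were higher in E9.25 Gli3-/- libraries and lower at E10.5 in Gli3-/- buds. They lie at chr12:109452573-109452822 and, for the first of the 2 *Meg3* starts, chr12:109540746-109540995, plus strand of GRCm38.p6.
Dlk1: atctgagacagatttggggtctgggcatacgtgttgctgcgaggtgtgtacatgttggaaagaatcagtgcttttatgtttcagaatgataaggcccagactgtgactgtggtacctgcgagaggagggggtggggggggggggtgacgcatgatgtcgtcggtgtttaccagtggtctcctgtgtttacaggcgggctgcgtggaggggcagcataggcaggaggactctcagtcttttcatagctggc
Meg3: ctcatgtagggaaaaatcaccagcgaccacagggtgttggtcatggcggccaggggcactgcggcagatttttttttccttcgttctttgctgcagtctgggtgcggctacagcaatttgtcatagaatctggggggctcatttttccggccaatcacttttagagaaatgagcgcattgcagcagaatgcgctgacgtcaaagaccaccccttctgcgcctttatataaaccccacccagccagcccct

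*Dlk1* fell between stages more than any other of the 10. It was at 219, 193 and 104 TPM in E9.25 WT, at 332, 516, 487 and 330.3 in E9.25 Gli3-/-, at 49.3, 29.2, 46.0 and 27.3 in E10.5 WT and at 42.3, 53.7 and 24.4 in E10.5 Gli3-/- libraries. Every E9.25 library was above every E10.5 library, and within E9.25 the genotypes did not overlap. Between stages *Dlk1* fell by 2.13 (SE 0.29, limma adjusted p = 0.000921) in WT and by 3.38 (SE 0.25, adjusted p = 9.37e-06) in Gli3-/- buds, which is 4.53 and 10.4 times less by mean TPM. The difference between these stage effects was −1.25 (SE 0.43, adjusted p = 0.145). With loss of *Gli3* at E9.25 the log2 fold change was 1.31 (SE 0.26, adjusted p = 0.108), and 1.43 (adjusted p = 0.155) without WT replicate 2. It passed only without WT replicate 1 among the fits that left out 1 library (1.52, adjusted p = 0.0319). At E10.5 it was 0.06 (SE 0.28, adjusted p = 0.942), with a sign that turned when any of 4 single libraries was left out.

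*Meg3* was at 80.4, 14.5 and 48.5 TPM in E9.25 WT, at 106, 167, 133 and 82.2 in E9.25 Gli3-/-, at 52.4, 42.4, 49.3 and 56.7 in E10.5 WT and at 35.1, 35.8 and 22.3 in E10.5 Gli3-/- libraries. It was thus highest in E9.25 Gli3-/- and lowest, apart from E9.25 WT replicate 2, in E10.5 Gli3-/- libraries. In Gli3-/- buds it fell by 1.92 between stages (SE 0.24, limma adjusted p = 0.000279). With loss of *Gli3* at E10.5 it fell by 0.70 (SE 0.16, adjusted p = 0.0438), a call that was lost when all 14 libraries shared 1 spread (adjusted p = 0.604) and when WT replicate 1 (adjusted p = 0.101), 3 (0.0738) or 4 (0.122) or Gli3-/- replicate 1 (0.0571) or 3 (0.0884) was left out. Under the other settings this call passed in 5 of 9. The value without Gli3-/- replicate 3, the lowest library, was −0.48. At E9.25 the genotype difference was 1.59 (SE 0.46, adjusted p = 0.217) and 0.91 (adjusted p = 0.348) without WT replicate 2, and it passed without WT replicate 1 (2.10, adjusted p = 0.0406). The difference between the genotype effects at the 2 stages was −2.28 (SE 0.57, adjusted p = 0.0547), and passed without E9.25 WT replicate 2 (−1.61, adjusted p = 0.0415), WT replicate 1 (−2.80, adjusted p = 0.00595) or Gli3-/- replicate 4 (−2.46, adjusted p = 0.0385). In WT buds the stage difference was 0.36 (adjusted p = 0.53) with WT replicate 2 and −0.32 (adjusted p = 0.194) without it.

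Some other RNAs of the *Dlk1* and *Meg3* domain were lower at E10.5 too, more of them in Gli3-/- than in WT buds. Of 6 neighbours in the list, 5 were tested between stages: 2 were lower and 1 higher in WT buds, and 4 were lower in Gli3-/- buds. Over all tested genes, 10.6% were lower and 38.1% higher in WT, and 9.17% were lower in Gli3-/- buds. *Rian*, the noncoding RNA downstream of *Meg3*, fell in both genotypes. Its WT libraries were at 137 to 228 TPM at E9.25 and 85.8 to 106 at E10.5 (log2 fold change −0.95), and its Gli3-/- libraries were at 221 to 295 TPM and then at 49.4 to 71.3 (−2.14). *Mirg* (−1.74) and *Rtl1* (−1.07) passed in Gli3-/- buds, and *Dio3*, which encodes a thyroid hormone deiodinase, in WT (−0.86) and Gli3-/- (−0.97) buds. At E10.5 *Rian* was 0.67 lower in Gli3-/- than in WT buds, the 1 of 4 neighbours tested that passed, and it was also the 1 of 5 whose genotype effect differed between the stages (−1.19). At E9.25 0 of 5 passed by limma, and 3 had an unadjusted p under 0.05, beside 3247 of the 14760 genes tested.

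*Plagl1* (ENSMUSG00000019817.18, chromosome 10, 13060504 to 13131694, plus strand) encodes a zinc finger transcription factor that can arrest the cell cycle and that acts on other imprinted genes. It had the largest genotype difference of the 10 at E9.25 and was the 1 whose genotype effect differed between stages by the test. The 250 bases before its RefSeq start (chr10:13090582-13090831, plus strand, GRCm38.p6) are shown for that reason. This start lies inside the span that the tables give the gene.
Plagl1: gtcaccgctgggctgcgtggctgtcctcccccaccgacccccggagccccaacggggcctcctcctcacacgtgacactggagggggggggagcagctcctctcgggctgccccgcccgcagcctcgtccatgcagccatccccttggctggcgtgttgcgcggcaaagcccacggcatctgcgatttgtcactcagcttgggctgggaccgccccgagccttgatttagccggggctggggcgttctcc

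*Plagl1* was at 26.9, 10.6 and 15.8 TPM in E9.25 WT, at 76.0, 90.3, 77.4 and 41.6 in E9.25 Gli3-/-, at 20.01, 18.0, 21.4 and 26.2 in E10.5 WT and at 18.6, 23.4 and 16.8 in E10.5 Gli3-/- libraries. The 4 E9.25 Gli3-/- libraries stood above the other 10, which spanned 10.6 to 26.9. The mean was 4.02 times that of WT at E9.25, with a log2 fold change of 1.99 (SE 0.32, limma adjusted p = 0.0523), or 1.76 above the median gene. Leaving out single libraries moved it between 1.69 and 2.32, with adjusted p from 0.0103 to 0.266, and it passed without WT replicate 1 or Gli3-/- replicate 4. Without WT replicate 2 it was 1.69 (adjusted p = 0.0909). At E10.5 the genotypes overlapped, with −0.12 (SE 0.14, adjusted p = 0.701). The difference between these effects was −2.11 (SE 0.39, adjusted p = 0.0119), and it passed in all 14 fits that each left out 1 library (adjusted p of 0.00175 to 0.0448). In Gli3-/- buds *Plagl1* fell by 1.77 between stages (SE 0.24, adjusted p = 0.000447), and in WT buds the difference was 0.34 (adjusted p = 0.31), which passed without E9.25 WT replicate 1 (0.67, adjusted p = 0.0241).

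The libraries with the 4 highest values of *Plagl1*, *Dlk1*, *Meg3* and *Igf2r* were also those with the 4 highest summed flank and lateral plate markers. These genes are the ones whose E9.25 genotype groups did not overlap, so that the match partly restates that separation. It is not particular to flank markers. The endothelial sums were also highest in the same 4 libraries, at 134 to 197 TPM, against at most 125 in the others. Within the genotypes the order was followed only in part. Among the E9.25 Gli3-/- libraries, replicate 4 had the lowest marker sum (101 TPM) and the lowest *Plagl1* (41.6), *Dlk1* (330.3) and *Meg3* (82.2), and replicates 2 and 3 had the highest sums (239 and 248) and the highest *Plagl1*, *Dlk1*, *Meg3* and *Igf2r*. The highest value of each gene was however in replicate 2, not in replicate 3 with the highest sum, and the lowest *Igf2r* (93.8) was in replicate 1. Among the E9.25 WT libraries, replicate 1 had the highest sum (79.8) and the highest value of all 4 genes, but replicates 2 and 3, with nearly equal sums (36.3 and 34.9), differed in *Igf2r* (13.2 and 59.0) and *Meg3* (14.5 and 48.5). The part of the markers in these differences was not tested.

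**Figure D4:**
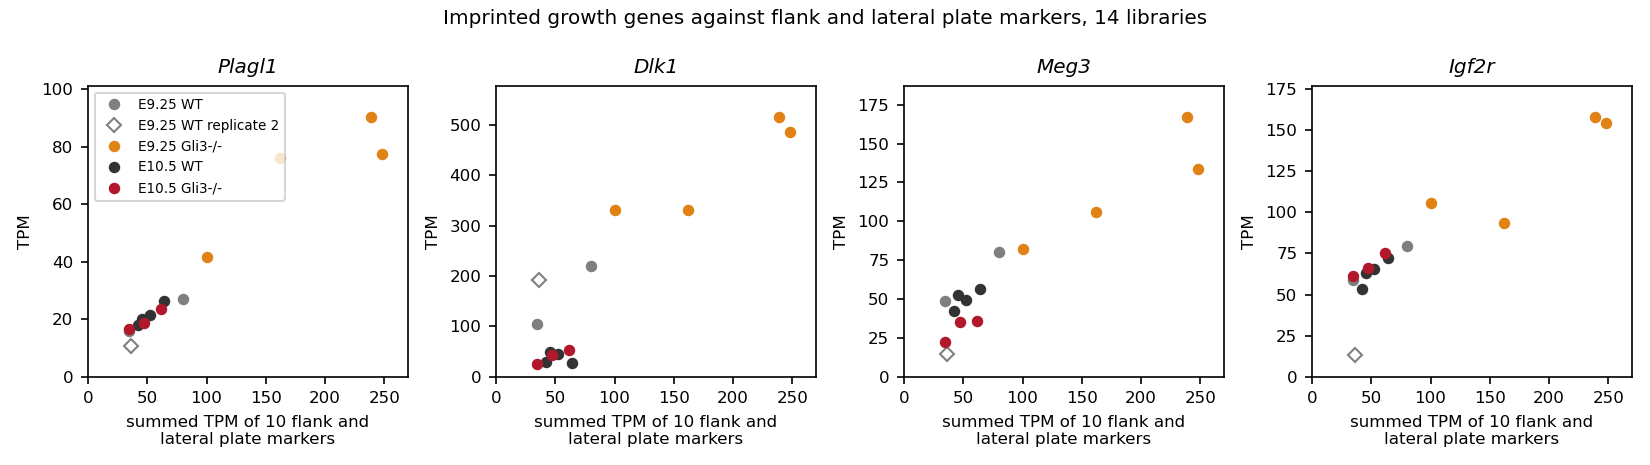
TPM of *Plagl1*, *Dlk1*, *Meg3* and *Igf2r* (vertical axes) against the summed TPM of 10 flank and lateral plate markers (horizontal axis) in the 14 libraries, coloured by stage and genotype, with E9.25 WT replicate 2 as the open diamond. The 4 E9.25 Gli3-/- libraries have the 4 highest marker sums (101 to 248 TPM) and the 4 highest values of each gene. The genes shown are those whose E9.25 genotype groups did not overlap.

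**Figure D5:**
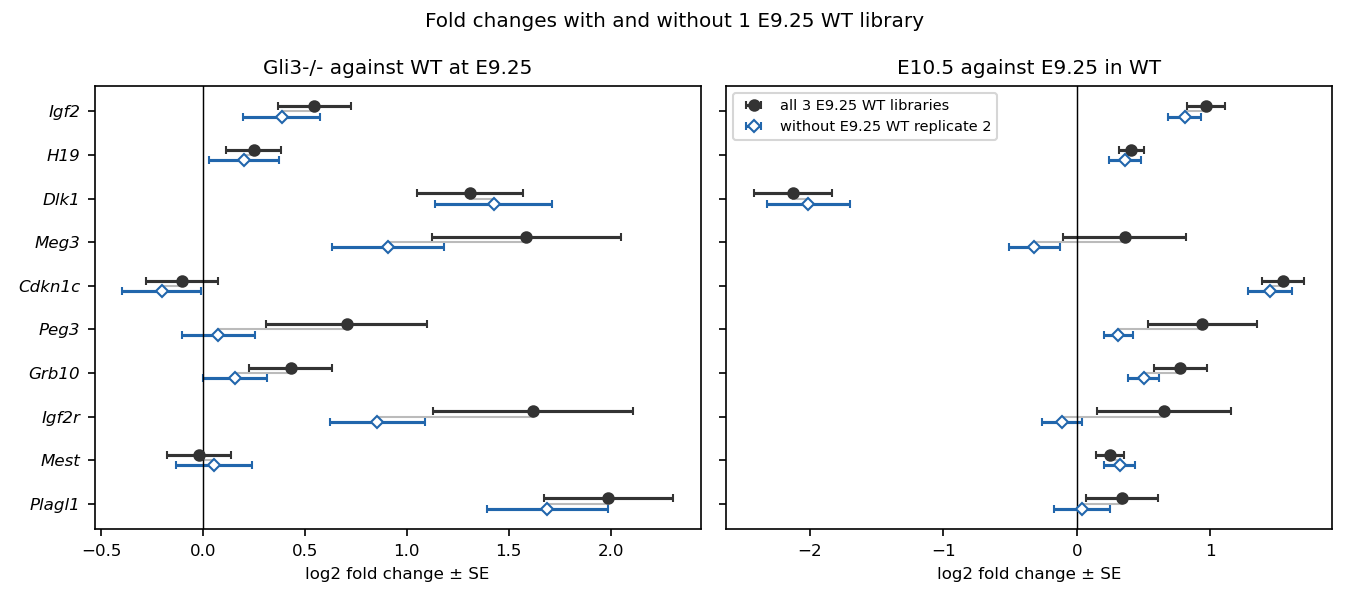
Log2 fold change with SE (horizontal axis) of the 10 genes at E9.25 for genotype (left) and between stages in WT (right), with all 3 E9.25 WT libraries (filled) and without E9.25 WT replicate 2 (open). *Meg3*, *Peg3* and *Igf2r* move most, and *Plagl1* and *Dlk1* keep differences of 1.69 and 1.43 for genotype.

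*Cdkn1c* (ENSMUSG00000037664.12, chromosome 7, 143458350 to 143461050, minus strand) encodes an inhibitor of cyclin-dependent kinases that takes cells out of the cycle. It was at 131, 94.4 and 103 TPM in E9.25 WT, at 84.3, 122, 117 and 85.8 in E9.25 Gli3-/-, at 274, 272, 363 and 379 in E10.5 WT and at 225, 375 and 259 in E10.5 Gli3-/- libraries. Each E10.5 library was above each E9.25 library, whatever the genotype. *Cdkn1c* rose between stages by 1.54 (SE 0.16, limma adjusted p = 0.000266) in WT and by 1.46 (SE 0.19, adjusted p = 0.000429) in Gli3-/- buds, and both calls held in every fit that left out 1 library. Genotype differences were −0.10 (SE 0.18, adjusted p = 0.716) at E9.25, or −0.20 (adjusted p = 0.584) without WT replicate 2, and −0.18 (SE 0.18, adjusted p = 0.634) at E10.5. Between stages 38.1% of all tested genes were higher and 10.6% lower in WT, and 15.8% and 9.17% in Gli3-/- buds. Among the neighbours of *Cdkn1c* in the *Kcnq1* domain 5 of 8 tested genes were higher and 1 lower between stages in each genotype. The lower one was *Phlda2*, a maternally read gene known to limit growth of the placenta, which went from 9.05 to 0.648 TPM (log2 fold change −2.62) in WT and from 18.7 to 1.04 TPM (−3.17) in Gli3-/- buds. Genotype gave 0 calls among the 7 tested by limma at either stage, with 1 at an unadjusted p under 0.05 at E9.25.

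*Peg3* (ENSMUSG00000002265.15, chromosome 7, 6703892 to 6730421, minus strand) encodes a large zinc finger protein. The 250 bases before its RefSeq start (chr7:6730420-6730669, minus strand, GRCm38.p6) are shown because it had the lowest adjusted p of the 10 for genotype at E10.5 and the one promoter of the group with a match to the PLAGL1 core, in capitals.
Peg3: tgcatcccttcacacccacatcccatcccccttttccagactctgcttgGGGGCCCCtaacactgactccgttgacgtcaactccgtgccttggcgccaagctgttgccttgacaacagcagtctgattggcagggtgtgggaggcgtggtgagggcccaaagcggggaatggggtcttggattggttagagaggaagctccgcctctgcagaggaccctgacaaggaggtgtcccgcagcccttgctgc

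*Peg3* was at 321, 82.6 and 295 TPM in E9.25 WT, at 281, 423, 317 and 293 in E9.25 Gli3-/-, at 380.4, 344, 381 and 427 in E10.5 WT and at 275, 245 and 258 in E10.5 Gli3-/- libraries. At E10.5 each Gli3-/- library was below each WT library, and *Peg3* fell by 0.56 with loss of *Gli3* (SE 0.08, limma adjusted p = 0.00556). This call held in all 7 fits that left out 1 library and under 7 of 9 other settings. It was lost with the replicate block and when all 14 libraries shared 1 spread (adjusted p = 0.622). At E9.25 the genotypes overlapped, with 0.70 (SE 0.40, adjusted p = 0.281) and 0.08 (adjusted p = 0.836) without WT replicate 2. In WT buds the stage difference was 0.94 (adjusted p = 0.082), and 0.31 (adjusted p = 0.0405) without that library, whose value was the lowest of the 14, and 1.28 (adjusted p = 0.0339) without WT replicate 1. In Gli3-/- buds it was −0.32 (SE 0.14, adjusted p = 0.125). *Zim1*, the 1 of 2 tested *Peg3* neighbours that passed, was also lower in Gli3-/- buds at E10.5, by 0.93, with 14.9 to 21.0 TPM over the 4 WT libraries and 7.01 to 10.4 over the 3 Gli3-/- libraries.

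*Mest* (ENSMUSG00000051855.15, chromosome 6, 30723547 to 30748465, plus strand), which encodes a protein of the hydrolase fold that is abundant in embryonic mesoderm, varied least. It was at 1783, 2107 and 1836 TPM in E9.25 WT, at 1455, 2190.4, 1965 and 1992 in E9.25 Gli3-/-, at 2413, 2016, 2429 and 2212 in E10.5 WT and at 2646, 2404 and 2184 in E10.5 Gli3-/- libraries. The groups overlapped in all 4 comparisons. The log2 fold changes were −0.02 and 0.09 for genotype at E9.25 and E10.5, with 0.0546 (adjusted p = 0.891) at E9.25 without WT replicate 2, and 0.25 (limma adjusted p = 0.0698) and 0.36 (adjusted p = 0.114) for stage in WT and Gli3-/- buds. The WT stage value is below the median gene, and it passed without E10.5 WT replicate 2 (0.30, adjusted p = 0.0385) and under quantile normalization (0.46, adjusted p = 0.00493) and turned to −0.12 (adjusted p = 0.623) with median-of-ratios size factors. *Copg2*, which overlaps *Mest* on the other strand, was 0.36 lower in Gli3-/- buds at E10.5.

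Several of the genes overlap others, and the sources do not say whether reads were assigned by strand. *Igf2* overlaps Igf2os on the other strand (group means of 18.4 to 29.8 TPM), *Igf2r* overlaps Airn (9.74 to 15.1 TPM) and *Mest* overlaps *Copg2* (40.7 to 63.4 TPM), so that reads of these pairs may be mixed. *H19*, *Igf2* and *Mest* overlap their microRNA genes on the same strand. *Mest* also overlaps Gm27522 and Gm27568 on the same strand and RP24-211G11.3 on the other, each at 2.25 TPM or less in every library. *Dlk1*, *Cdkn1c*, *Peg3* and *Grb10* overlap no listed gene, and *Meg3* and *Plagl1* overlap only genes under a TPM of 1.

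RefSeq windows of 300 bases (250 before and 50 after a start) were found for 8 of the 10, 15 windows in all, and for neither *H19* nor *Cdkn1c*. The GLI consensus TGGGTGGTC, searched on both strands (GACCACCCA), was in 0 of these 15 windows and in 0.253% of all 32851 windows. The core GGGGCCCC that PLAGL1 binds, which reads the same on both strands, was in 1, that of *Peg3*, from base −201, and in 1.08% of all windows. As the GLI consensus was in 0 of these windows, no overlap between the motifs was possible. The windows differed in base makeup. CpG counts were 34 in *Igf2r*, 26 in *Plagl1*, 13 in *Peg3* and the first *Meg3* window and 9 in *Dlk1*, and ranged from 1 to 45 over the 15, against a median of 7 over all windows. A match to these letters is a description of the sequence and not a binding site.

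Lists of related genes were counted by the same test. Over all tested genes, 1.84% were higher and 2.93% lower for genotype at E10.5. Between stages 38.1% were higher and 10.6% lower in WT, and 15.8% and 9.17% in Gli3-/- buds. The genotype effect differed between stages for 2.13%. At E9.25, 3247 of 14760 genes had an unadjusted p under 0.05 by limma. These shares apply to the lists of the next paragraph too. Among 25 other imprinted genes tested at E10.5, 4 were higher in Gli3-/- buds (*Nap1l5* by 0.95, *Snrpn* by 0.51 and *Peg12* by 0.49 had the largest increases) and 3 were lower (*Asb4* by 0.99, *Sgce* by 0.46 and *Casd1* by 0.39). Between stages 13 of 25 were higher and 2 lower in WT, and 5 of 26 were higher and 1 lower in Gli3-/- buds. *Nnat*, which encodes the membrane proteolipid neuronatin, rose from 408 to 1491 TPM in WT and from 212 to 1948 in Gli3-/- buds, and was the 1 of 26 whose genotype effect differed between stages (1.30). At E9.25 0 of 25 passed by limma, and 10 had an unadjusted p under 0.05.

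In the IGF axis the hormone *Igf1* was lower in Gli3-/- buds at E10.5, with 5.64 to 12.99 TPM over the 4 WT libraries and 1.65 to 2.31 over the 3 Gli3-/- libraries (log2 fold change −1.58). It was 1 of 3 genes of 16 tested that were lower, with the binding proteins *Igfbp5* (−0.95) and *Igfbp2* (−0.51), and 0 were higher. Between stages 9 of 16 were higher and 1 lower in WT (*Igf1* by 1.81, *Igfbp2* by 1.78 and *Insr* by 1.10 higher, *Stc2* by 1.10 lower), and 4 were higher and 1 lower in Gli3-/- buds. The genotype effect on *Igf1* differed between stages (−1.77), and at E9.25 0 of 15 passed by limma, with 4 at an unadjusted p under 0.05. Of the 4 relatives of *Plagl1* and *Cdkn1c*, *Cdkn1a*, which encodes a related inhibitor, was higher in Gli3-/- buds at E10.5 (1.03, from 8.56 to 18.5 TPM), and *Plag1* was higher at E10.5 in both genotypes (0.91 and 0.48). Among genes that keep imprints or set DNA methylation, 7 of 15 tested were higher between stages in WT (*Tet2* by 1.47, *Arid4b* by 1.37 and *Tet3* by 1.32), beside 38.1% of all genes. In Gli3-/- buds 6 of 15 were higher, beside 15.8%, and 0 were lower in either genotype. *Dnmt3b*, a de novo DNA methyltransferase, was the 1 of 15 that passed for genotype at E10.5 (0.40 higher in Gli3-/-), and at E9.25 0 of 15 passed by limma, with 9 at an unadjusted p under 0.05.

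The genes whose levels ran most like each of the 10 were ranked by Pearson's r of log2(TPM + 1) over the 14 libraries among 15032 genes, as a description. The libraries fall into 4 groups, which such an r mostly follows. *Dlk1* was closest to the pseudogene Pgam1-ps2 (r = 0.986), whose reads may come from its parent gene, and to *Myc* (0.984), whose mean TPM was 46.5, 66.7, 13.9 and 15.3 in E9.25 WT, E9.25 Gli3-/-, E10.5 WT and E10.5 Gli3-/- buds. *Meg3* was closest to Gm27000 (0.996) and *Adamts9* (0.986), *Cdkn1c* to the retinoic acid receptor gene *Rarg* (0.982) and *Shd* (0.982), and *Igf2* to *Arhgef7* (0.989) and *Susd6* (0.989). *Plagl1* was closest to *Lppr1* (0.969) and 9430020K01Rik (0.964), and *Igf2r* to the laminin gene *Lamc1* (0.982) and *Thsd4* (0.977). For *Peg3* these were *Acap2* (0.967) and Gm13204 (0.964), for *Grb10* *Exoc6b* (0.989) and *Slc39a9* (0.987), for *H19* *Slc41a1* (0.943) and *Fads2* (0.941), and for *Mest* *Hpcal1* (0.941) and Gm9800 (0.931).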

How the data were processed

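RNA was extracted from pooled forelimb buds, made into libraries with the NEBNext Ultra II RNA kit and sequenced as single reads of 100 bases. The authors aligned the reads with HISAT2 to mm10, the build in the submitters' processing notes. The deposited tables give TPM, FPKM and coverage per gene for each library, with no counts, and the tool and annotation that made them are not given in the sources used here. TPM was tested. FPKM and coverage, as deposited, gave only checks and the estimated depth (38.1 to 56.8 M reads), so that counting intervals are not given.

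Genes at a TPM of 1 or more in at least 3 of the libraries compared were tested on log2(TPM + 1) with limma 3.58.1 (R 4.3.3), with a trended prior, two-sided, with Benjamini-Hochberg adjustment over all genes tested and a threshold of 0.05. Fold changes on this scale understate those of low genes. The genotypes were compared at each stage, the stages in each genotype, and the genotype effects between stages. The members and lists were chosen with earlier results of these data known. The named list genes are the 3 with the largest change in each direction among those past the threshold, and for each member the 2 genes most like it by r. Genes outside this rule that are named with values were chosen after their values were seen. By the sample titles, deviations of same-numbered libraries had correlations from −0.295 to 0.153. The other numbering of the E10.5 Gli3-/- libraries, given below, pairs each with the library of the next title number. Its genotype pairs at E10.5 had correlations of 0.0522, 0.316 and 0.200. Its stage pairs in Gli3-/- buds had −0.0939, 0.166 and −0.00405. Whether replicate numbers pair the samples was thus not settled, and the replicate block used the title numbers. The fits that compare 2 groups were run on simulated data with known changes, and the fit of the difference between genotype effects was not. Alternatives were another pseudocount (0.1), no filter or one at 5 TPM, no trend, weights for library quality, quantile normalization, size factors by the median of ratios, a replicate block, 1 model of all 14 libraries and each library left out in turn. Sequences came from RefSeq tables and were matched by symbol. The tables number the E10.5 Gli3-/- libraries differently from the sample titles, which were followed.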

Additional observations from a re-analysis of the deposited data

Results flagged for a closer look

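The effect of losing *Gli3* on *Plagl1* differed between the stages, by the test of the difference itself in a model of all 14 libraries (−2.11 on the log2 scale, SE 0.39, limma adjusted p = 0.0119). The genotype difference was 1.99 at E9.25, higher in 4 of 4 Gli3-/- libraries than in any WT library, and −0.12 at E10.5, where the groups overlapped. Without E9.25 WT replicate 2 the difference between the effects was −1.81 (adjusted p = 0.0254). Of 9 tested flank and lateral plate markers, 5 were also lower by this test and 0 higher, beside 1.65% of all genes lower. They were *Foxf1* (−3.59), *Gata4* (−2.99), *Hand1* (−2.81), *Gata6* (−1.72) and *Gata5* (−1.44), and their part in the *Plagl1* result was not tested. The stages compare whole with anterior buds, so that age and part of the bud cannot be told apart. No library stood apart among the 20 sets examined (each of the 10 genes in each group of 4 libraries), and groups of 3 were not tested.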

How the results depend on the processing

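The stage differences of *Cdkn1c* and *Dlk1* passed in both genotypes, and that of *Igf2* in WT buds, under every alternative run. At E9.25 the number of the 10 genes higher in Gli3-/- buds was 0, and it became 1 with a filter at 5 TPM, quantile normalization, size factors or quality weights, 5 with all 14 libraries in 1 model, and 0 to 3 with 1 library left out (3 without WT replicate 1). At E10.5 the number lower was 2, and it became 1 with no filter or no trend, 0 with all 14 libraries, and 1 to 2 with 1 library left out. The number higher between stages was 4 in WT, 2 with size factors, up to 5 under the other settings and 4 to 6 with 1 library left out. For Gli3-/- buds it was 3, 1 with no filter, 2 to 4 under the other settings and 1 to 3 with 1 library left out, and the number lower was 4, and 3 to 5 under the other settings. The number whose genotype effect was lower at E10.5 was 1, 2 with quantile normalization, 3 with quality weights and 1 to 4 with 1 library left out (4 without E9.25 WT replicate 1). With the replicate block, by title numbers, the counts were 2 at E9.25 and 0 at E10.5. Whether these numbers pair the samples was not settled.

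Values that turned sign were not called. At E9.25 *H19* was −0.0022 with size factors, *Cdkn1c* ran from −0.202 to 0.0307 with 1 library left out, and *Mest* was 0.15 with quantile normalization, 0.0587 with quality weights and −0.0922 to 0.105 with 1 library left out. At E10.5 *Dlk1* was −0.24 with quality weights, −0.0820 with the replicate block and −0.18 to 0.37 with 1 library left out. Between stages in WT, *Meg3* ran from −0.32 to 0.88 and *Igf2r* from −0.11 to 1.14 with 1 library left out, *Mest* was −0.12 with size factors, and *Plagl1* was −0.0566 with quantile normalization and −0.00508 with size factors. For the difference between genotype effects, *H19* was −0.44 with quantile normalization, *Cdkn1c* was 0.21 with size factors and −0.29 to 0.0744 with 1 library left out, and *Mest* was −0.0266 with quantile normalization, −0.00280 with quality weights and −0.0161 to 0.18 with 1 library left out. Over all genes, calls at E9.25 ran from 0 to 1039 higher (16) and 0 to 146 lower (4), and at E10.5 from 67 to 466 higher (288) and 97 to 890 lower (459). The causes were not tested.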
